A study of Mus musculus with 10 samples.

Results

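The genes described here encode 10 proteins of the 2 Polycomb repressive complexes of mouse embryonic stem cells: Ezh2, Suz12, Eed and Jarid2 of PRC2, and Rnf2, Ring1, Cbx2, Cbx7, Cbx8 and Phc1 of PRC1. They were chosen by name, from the gene symbols of the 3 expression tables, and are 10 of 36586 listed genes. All 10 were found in every table. RNA was measured in 4 libraries of the JM8.N4 stem cell line, and binding of RAD23B, a subunit of the XPC DNA repair complex, was measured by chromatin immunoprecipitation (ChIP) in 6 libraries of embryonic stem cells.

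The Polycomb proteins keep genes silent that a cell does not use, many of them developmental regulators. PRC2 places methyl groups on lysine 27 of histone H3, EZH2 being its catalytic subunit and SUZ12 and EED the core partners without which it does not work. PRC1 places ubiquitin on histone H2A through its RING subunits, and its CBX subunits read the mark left by PRC2. Embryonic stem cells use both complexes to hold lineage genes in a silent but inducible state.

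For the RNA, wild-type cells were set beside Rad23b-/- cells and beside Rad23b-/- cells in which Xpc was knocked down with either of 2 independent shRNAs, called knockdown 1 and knockdown 2 below. All 3 mutants are therefore Rad23b-/- by their labels, all 3 comparisons share the 1 wild-type library, and each genotype had 1 library. The labels do not say whether a mutant line was 1 clone. For ChIP, wild-type D3 cells gave 2 RAD23B and 2 IgG libraries, and Xpc-/- cells gave 1 of each, from pooled immunoprecipitations. The antibody was raised in guinea pigs and guinea pig IgG was the control. Binding and RNA were thus measured in different lines.

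With 1 RNA library per genotype there is no replicate error and no test, so RNA values are given as levels and as counts past 2-fold, beside the same counts over all genes. RNA levels are RPKM, reads scaled to transcript length and library size, which can be compared between genes. A difference is the log2 of mutant RPKM + 1 divided by wild-type RPKM + 1, taken where 1 of the libraries compared reached an RPKM of 1. The only gauge of spread between libraries was the pair of knockdowns, which differed by up to 0.22 on this scale for the closest 68% of 15152 genes. The remaining genes differed by more, and the standard deviation of the difference was 0.66. This gauge leaves out the error of the 1 wild-type library, which enters all 3 comparisons alike. The mutant libraries were deeper, at 1.29, 1.23 and 1.26 times the wild-type depth in the order Rad23b-/-, knockdown 1 and knockdown 2. Rad23b stood at 229 RPKM in wild type and at 43.9, 35.8 and 52.5 RPKM in the mutants, so that Rad23b RNA was lower but still detected in libraries labelled Rad23b-/-. How the Rad23b gene was disrupted is not stated in the labels. Xpc stood at 8.73, 8.34, 0.915 and 0.895 RPKM in wild type, Rad23b-/-, knockdown 1 and knockdown 2. All 8 stem cell markers listed were above 1 RPKM in wild type, while 0 of 7 fibroblast markers were. The summed fibroblast level was between 1.648 and 2.382 RPKM in the 4 libraries, with Postn read as 0 in all of them (a deposited RPKM of exactly 1 was read as 0, throughout). The summed trophectoderm level was 56.52, 63.68, 56.92 and 34.38 RPKM, and that of primitive endoderm between 4.782 and 5.866 RPKM. Nanog (512, 197, 243 and 209 RPKM) and Esrrb (162, 51.5, 77 and 60.2 RPKM), genes of naive stem cells, were at least 2-fold lower in all 3 mutants. They were the only 2 of the 8 stem cell markers past 2-fold. Pou5f1, Sox2 and Utf1 were lower by less than 2-fold, and Dppa5a went both ways. Zfp42 was level (44.6, 47, 42.4 and 42.3 RPKM), and Tdgf1 was not lower in any mutant (1087, 1151, 1593 and 1304 RPKM). The part of these shifts in the results below was not tested. In these bulk libraries, fewer cells with a transcript and less transcript per cell cannot be told apart.

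The promoters of 9 of the 10 members were matched by symbol in the RefSeq table of GRCm38.p6, which gives 250 bases before and 50 after a start. Those of 4 members are shown: Phc1, whose start carried the strongest RAD23B region, Cbx8, whose RNA differed most, Suz12, the most abundant member, and Ezh2, the catalytic subunit. Each is printed 5′ to 3′ on the strand of its gene, with GRCm38.p6 coordinates, whereas gene and region coordinates elsewhere are those of mm9 in the deposited files. Capitals mark matches, on either strand, to any of 6 motifs, with no overlap between matches in these sequences. The motifs searched were the GC box GGGCGG, present in 35.7% of 32851 promoters, the CCAAT box CCAAT (37.4%), the cAMP response element TGACGTCA (1.79%), the octamer ATGCAAAT (1.74%), the E box CACGTG (7.15%) and the SOX core CATTGT (12.6%).
Phc1 (minus strand, chr6:122340178-122340477): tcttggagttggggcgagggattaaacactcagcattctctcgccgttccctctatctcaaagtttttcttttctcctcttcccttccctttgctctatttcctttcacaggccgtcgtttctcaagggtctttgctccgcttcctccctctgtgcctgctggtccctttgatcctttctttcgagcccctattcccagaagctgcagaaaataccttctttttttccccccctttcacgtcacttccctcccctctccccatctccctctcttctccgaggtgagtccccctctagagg
Cbx8 (minus strand, chr11:119040864-119041163): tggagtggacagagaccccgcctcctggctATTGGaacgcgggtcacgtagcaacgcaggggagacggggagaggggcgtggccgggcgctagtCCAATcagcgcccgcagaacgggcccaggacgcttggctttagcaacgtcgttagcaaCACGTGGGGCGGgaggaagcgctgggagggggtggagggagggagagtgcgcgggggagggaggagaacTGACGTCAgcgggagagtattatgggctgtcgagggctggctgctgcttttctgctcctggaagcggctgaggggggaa
Suz12 (plus strand, chr11:79992856-79993155): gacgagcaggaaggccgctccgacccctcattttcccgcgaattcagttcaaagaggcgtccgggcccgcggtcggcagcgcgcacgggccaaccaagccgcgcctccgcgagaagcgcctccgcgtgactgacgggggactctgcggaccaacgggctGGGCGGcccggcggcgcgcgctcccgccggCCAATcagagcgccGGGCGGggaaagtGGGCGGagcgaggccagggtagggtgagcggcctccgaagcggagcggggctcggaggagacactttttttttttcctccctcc
Ezh2 (minus strand, chr6:47594981-47595280): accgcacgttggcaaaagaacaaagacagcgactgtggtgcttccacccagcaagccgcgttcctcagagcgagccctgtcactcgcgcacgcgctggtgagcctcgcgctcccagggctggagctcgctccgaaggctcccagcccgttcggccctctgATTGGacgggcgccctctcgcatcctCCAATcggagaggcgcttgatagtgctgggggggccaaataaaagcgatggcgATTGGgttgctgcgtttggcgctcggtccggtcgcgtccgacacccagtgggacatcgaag

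The sequences differ in kind. The Phc1 promoter held none of the 6 motifs and 9 CG dinucleotides, close to the median of 7 over all promoters, with 52% G and C. The Cbx8 promoter held 24 CG dinucleotides, 2 CCAAT boxes at positions -220 and -156 from the start, an E box at -98 with a GC box at -92 beside it, and a cAMP response element at -29. The Suz12 promoter was the richest in CG of the matched members, with 41, more than 96.5% of all promoters. It held 3 GC boxes and 1 CCAAT box in the stretch from -91 to -34. The Ezh2 promoter held 3 CCAAT boxes, at -90, -64 and -11, and 31 CG dinucleotides. Of the other members, Ring1 had 37 CG dinucleotides, Cbx7 33, Rnf2 30, Jarid2 24 and 23 at its 2 starts, and Eed 17. GC boxes were found at Jarid2, Rnf2, Ring1 and Cbx7 too, and a CCAAT box at Eed, Jarid2 and Cbx7. Neither the octamer nor the SOX core was found in any of the 10 promoters of the 9 matched members. Cbx2 had no entry. A match is a run of letters and not a measured site.

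In wild-type cells the members covered a wide range of RNA levels, with 279-fold between the highest, Suz12, and the lowest, Cbx8. The order was Suz12 at 239 RPKM, Phc1 at 154, Jarid2 at 121, Eed at 89.1, Rnf2 at 81.2, Ezh2 at 80.2, Cbx7 at 48.7, Cbx2 at 9.29, Ring1 at 4.52 and Cbx8 at 0.858 RPKM. Eed, Rnf2 and Ezh2 lay closest, with neighbours among them 0.13 and 0.02 apart in the log2 of their RPKM. The other neighbours were 0.34 or more apart. The spread between the knockdowns is that of the same gene between libraries. The error of an order of genes within the wild-type library was therefore not measured, for these 3 genes or for the other neighbours. Suz12 lay above 96.2% of the protein-coding genes with at least 1 RPKM, and Ring1 above 22.5%. Of the RING ligases Rnf2 was far above Ring1, and of the 3 chromobox genes Cbx7 was highest, at 5.24 times Cbx2.

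**Figure D1:**
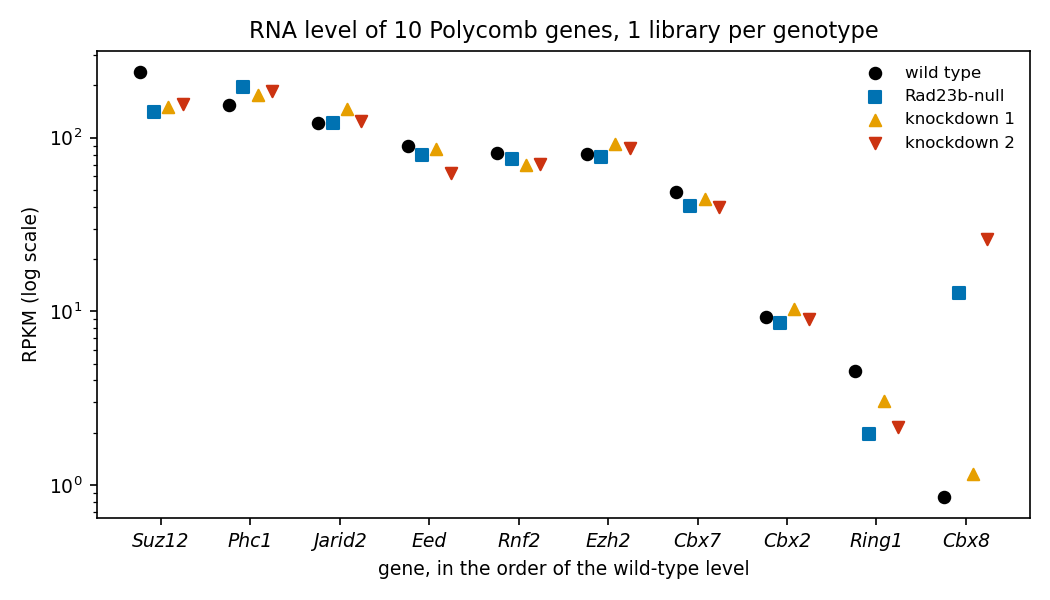
RPKM (log scale) of each of the 10 genes in the 4 RNA libraries, 1 point per library, ordered by the wild-type level. 7 genes lie at 39.9 RPKM or above in all 4 libraries, the Suz12 mutant points lie below wild type, and Cbx8 separates into 2 low and 2 high libraries.

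Against the whole transcriptome the members differed little. In Rad23b-/- cells 1 of 10 members, Cbx8, was at least 2-fold higher than in wild type, beside 4.74% of 15040 genes, and 0 were at least 2-fold lower, beside 4.61%. In knockdown 1 no member was past 2-fold, where 3.95% of 14821 genes were higher and 3.4% lower. In knockdown 2 Cbx8 alone was higher and 0 were lower, beside 3.93% and 3.6% of 14877 genes. The members' median difference was -0.10, 0.08 and -0.10 in Rad23b-/-, knockdown 1 and knockdown 2, against -0.16, -0.14 and -0.14 over all genes. With all genes centred on 0 the members' medians became 0.06, 0.22 and 0.05, so their sign in Rad23b-/- and knockdown 2 depends on the scaling. Apart from Cbx8, the members lay between -0.89 and 0.34 in Rad23b-/- cells, between -0.63 and 0.30 in knockdown 1 and between -0.78 and 0.29 in knockdown 2. The p-values that the authors' deposited table gives for the members ran from 0.419 to 1.000, and rest on no replicates.

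**Figure D2:**
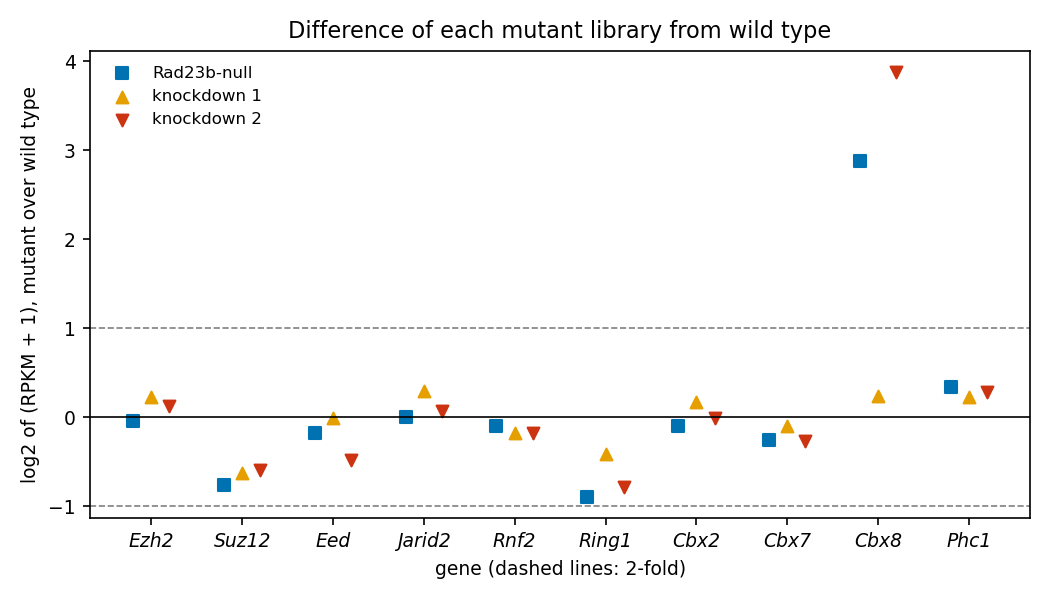
Log2 of (RPKM + 1), mutant over wild type, for each gene in Rad23b-/- (squares), knockdown 1 (upward triangles) and knockdown 2 (downward triangles). Dashed lines mark 2-fold. Cbx8 is past 2-fold in Rad23b-/- (2.88) and knockdown 2 (3.88) and near 0 in knockdown 1 (0.24), and the other 9 genes lie between -0.89 and 0.34.

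Within the PRC2 core, Suz12 had the largest RNA differences, all downward. Suz12 (ENSMUSG00000017548, chr11:79806607-79847625 in mm9, plus strand) encodes the zinc finger subunit that holds the PRC2 core together. Its level was 239 RPKM in wild type, 141 in Rad23b-/-, 150 in knockdown 1 and 156 in knockdown 2. All 3 mutant libraries were low and close to each other, at 59.1%, 64.5% and 66.3% of the wild-type value of the same table. The log2 differences were -0.76, -0.63 and -0.59, and -0.59, -0.49 and -0.45 with all genes centred on 0. They were short of 2-fold and larger than the 0.22 between the knockdowns. The standard deviation between the knockdowns was 0.66, and only the uncentred Rad23b-/- difference was larger than that. Both gauges leave out the error of the shared wild-type library. The antisense lincRNA Gm16706 is listed on the same coordinates, at 20.5, 12, 11.9 and 12.7 RPKM in the same order, with differences of -0.72, -0.70 and -0.62. Strand-specific counting is not stated, so reads of Suz12 and Gm16706 cannot be told apart. The authors' deposited table gives Suz12 p-values of 0.567, 0.510 and 0.609.

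Ezh2 and Eed did not share that pattern of values. Ezh2 (ENSMUSG00000029687, chr6:47480272-47545340, minus strand), the H3K27 methyltransferase, stood at 80.2 RPKM in wild type, 77.9 in Rad23b-/-, 91.6 in knockdown 1 and 86.7 in knockdown 2. These 4 libraries were close, with differences of -0.04, 0.23 and 0.13. The antisense lincRNA Gm17629 on the Ezh2 coordinates was low, between 2.04 and 3.1 RPKM. Eed (ENSMUSG00000030619, chr7:97103165-97129493, minus strand) encodes the WD40 subunit that binds the methylated histone and stimulates the enzyme. Its level was 89.1 RPKM in wild type, 79.4 in Rad23b-/-, 86.1 in knockdown 1 and 62.5 in knockdown 2. Only the knockdown 2 library was low for Eed, at 71.3% of wild type (-0.48), while knockdown 1 was at 99.2% (-0.01).

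Jarid2, the accessory subunit that helps bring PRC2 to its sites, was level across the libraries except for knockdown 1. Jarid2 (ENSMUSG00000038518, chr13:44824842-45017012, plus strand) stood at 121 RPKM in wild type, 122 in Rad23b-/-, 146 in knockdown 1 and 125 in knockdown 2. The knockdown 1 value was 0.30 above wild type on the log2 scale, and the other differences were 0.00 and 0.07. A small nucleolar RNA gene, SNORA61, shares its coordinates and was listed at exactly 1, read as 0, in all libraries.

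Of the RING ligases of PRC1, the abundant one was level and the rare one was lower. Rnf2 (ENSMUSG00000026484, chr1:153316535-153347953, minus strand), which encodes RING1B, the main H2A ubiquitin ligase of stem cells, stood at 81.2 RPKM in wild type, 75.8 in Rad23b-/-, 69.8 in knockdown 1 and 70.3 in knockdown 2. Its differences of -0.10, -0.18 and -0.18 were near those of the median gene. Ring1 (ENSMUSG00000024325, chr17:34157736-34161625, minus strand), the paralog that encodes RING1A, stood at 4.52 RPKM in wild type, 1.98 in Rad23b-/-, 3.06 in knockdown 1 and 2.17 in knockdown 2. All 3 mutant libraries were low for Ring1, at 43.7%, 69.5% and 48.8% of wild type. On the scale of RPKM + 1 the differences were -0.89, -0.41 and -0.78. With a pseudocount of 0.1 RPKM Ring1 passed 2-fold in Rad23b-/- (-1.15) and knockdown 2 (-1.0). The nearest protein-coding gene upstream, Slc39a7, which encodes a zinc transporter, was lower in the mutants too, at 58, 43.3, 33.7 and 38.5 RPKM.

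The chromobox genes encode the subunits by which canonical PRC1 binds methylated H3K27. Cbx7 (ENSMUSG00000053411, chr15:79746236-79801549, minus strand), the main chromobox subunit of stem cells, stood at 48.7 RPKM in wild type, 40.7 in Rad23b-/-, 44.4 in knockdown 1 and 39.9 in knockdown 2. Its 3 mutant values were a little lower, with differences of -0.25, -0.10 and -0.26. Cbx2 (ENSMUSG00000025577, chr11:118884275-118892584, plus strand), which also compacts chromatin, was level at 9.29, 8.58, 10.3 and 9.04 RPKM in the same order. Cbx2 and Cbx8 are neighbours on chromosome 11 and are listed on opposite strands.

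Cbx8 was the outlying member. Cbx8 (ENSMUSG00000025578, chr11:118897618-118902283, minus strand), a chromobox gene that becomes more prominent as stem cells differentiate, stood at 0.858 RPKM in wild type, 12.7 in Rad23b-/-, 1.16 in knockdown 1 and 26.1 in knockdown 2. Rad23b-/- and knockdown 2 were high and the other 2 libraries low. The authors' deposited table gives ratios to wild type of 14.8, 1.39 and 31.0 with p-values of 0.745, 0.789 and 0.419. Because both knockdowns target Xpc in Rad23b-/- cells, they were compared with each other: knockdown 2 was 3.64 above knockdown 1 on the log2 scale, knockdown 1 was 2.65 below Rad23b-/- (-2.65), and knockdown 2 was 1.00 above it. Cbx8 was the only member past 2-fold in the comparison of the knockdowns, where 3.27% of genes were, and in knockdown 1 against Rad23b-/-, where 3.53% were. No member was past 2-fold in knockdown 2 against Rad23b-/-, beside 3.36% of genes, since Cbx8 was just short of it before rounding. With a pseudocount of 0.1 RPKM its differences from wild type were 3.74 in Rad23b-/- and 4.80 in knockdown 2, which are past 2-fold apart. That count therefore depends on the pseudocount.

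No other member shared the pattern of Cbx8. It was met by 105 of 15459 genes (0.679%), which passed 2-fold upward in Rad23b-/- and knockdown 2 and not in knockdown 1, whereas 256 genes passed it in all 3 mutants. A further 101 passed it in Rad23b-/- and knockdown 1 and not in knockdown 2. By the Euclidean distance of the 3 log2 differences, among 9256 genes with coordinates of their own, the nearest to Cbx8 were AL929465.1 (distance 0.77), AC124406.1 (0.78) and Snord7 (0.85). AL929465.1, a microRNA gene, stood at 1.27, 27.6, 1.7 and 33.2 RPKM. AC124406.1, listed as a microRNA gene, and Snord7, a small nucleolar RNA gene, were listed at exactly 1 in wild type and knockdown 1, which was read as 0 and enters their distances. All 3 are small noncoding genes, a class for which poly-A libraries give few reads, and Cbx8 is protein-coding. Cbx2, next to Cbx8, did not share its values.

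Phc1, the last PRC1 member, had higher RNA in all 3 mutants. Phc1 (ENSMUSG00000040669, chr6:122267748-122290579, minus strand), a Polyhomeotic gene whose product joins PRC1 particles through its SAM domain, stood at 154 RPKM in wild type, 196 in Rad23b-/-, 177 in knockdown 1 and 186 in knockdown 2. The differences were 0.34, 0.23 and 0.29, under 2-fold. They were above the 0.22 between the knockdowns, by little in knockdown 1, and below the standard deviation of 0.66 between the knockdowns. Both gauges leave out the error of the shared wild-type library. Its neighbour M6pr, which encodes a receptor for lysosomal enzymes, was lower in the same libraries, at 72.7, 54.1, 47 and 58 RPKM.

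Outside the 10 members, the other Polycomb genes were examined by lists of subunits. Of 8 further PRC2 genes, Phf19, a Polycomb-like protein that binds methylated H3K36, was the only one past 2-fold, at 2.04 RPKM in wild type and 6.2, 6.45 and 4.36 in the mutants (1.24, 1.32 and 0.83), on coordinates shared with 1 other gene. The medians of these 8 were -0.14, -0.14 and -0.30. Their highest levels in wild type were those of the histone chaperones Rbbp4 (360 RPKM) and Rbbp7 (276 RPKM) and of Mtf2 (120 RPKM), and the lowest was that of Phf1 (1.35 RPKM). Of 22 further PRC1 genes, 0 were past 2-fold in any mutant, with medians of -0.05, -0.14 and -0.09. Scml2 (1.38 RPKM) was among the lowest of them. Of 6 genes that oppose Polycomb, the H2A deubiquitinase subunits and H3K27 demethylases, 0 were past 2-fold, with medians of -0.23, -0.18 and -0.27.

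Developmental genes known as Polycomb targets were listed too, 44 in all, of which 35 were under 1 RPKM in wild type. At least 2-fold higher were 3 of 17 tested in Rad23b-/-, 4 of 16 in knockdown 1 and 4 of 16 in knockdown 2. Over all genes it was 4.74%, 3.95% and 3.93%. In each mutant 1 tested target was at least 2-fold lower, beside 4.61%, 3.4% and 3.6% of all genes. Among those past 2-fold in all 3 mutants were Cdkn2a, a cell cycle inhibitor locus that PRC1 is known to silence (3.53, 9.88, 10.8 and 9.22 RPKM) and Hand1 (0.329, 3.31, 3.48 and 1.7 RPKM). Hoxd13 passed it in knockdown 1 (0.278 and 1.64 RPKM) and Hoxb13 in knockdown 2 (0.708 and 2.46 RPKM). Hand1, Hoxd13 and Hoxb13 were under 1 RPKM in wild type and met the filter only through a mutant library where they were high. The counts of higher targets above therefore favour genes that rose. Neurog1, a neural bHLH factor, was lower in all 3, at 4.24, 0.382, 0.799 and 0.603 RPKM. Without a filter on low values, 36, 35 and 35 of the 44 had a difference above 0, with medians of 0.16, 0.22 and 0.21. Of the 35 under 1 RPKM in wild type it was 31, 30 and 30 (88.6%, 85.7% and 85.7%), beside 66.2%, 62.3% and 62.8% of 7167 protein-coding genes under 1 RPKM there and above 0 in at least 1 library. Of the 44, 9 were listed at exactly 1, read as 0, in wild type and 0, 0 and 1 in the mutants, whose libraries were deeper. The part of depth in these counts was not tested.

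RAD23B was found at the genes of both complexes. The authors listed regions with more RAD23B than IgG reads, 59768 in wild-type replicate 1 and 42364 in replicate 2, from libraries of 109 M and 62.5 M reads, with a fold over IgG scaled to library size for each region. That fold is the authors' own value and is used here only to describe and rank regions. A region is called shared when a replicate 1 region overlaps a replicate 2 region by at least 1 base, which held for 38822 regions (65% of the first list). All 10 members had a shared region inside the locus or within 5 kb, as did 49.5% of all listed loci and 85.3% of protein-coding genes with at least 1 RPKM. All 10 also had a shared region within 1 kb of the listed start, beside 75.2% of those expressed genes. The presence of a region is therefore common among expressed genes. At an authors' fold of at least 2 in both replicates the count was 8 of 10, all but Suz12 and Ring1, beside 40.2% of expressed genes. Cbx2 met it only by a region across the 3′ end of Cbx8, which counts for both. The members' loci ran from 3.89 kb (Ring1) to 192 kb (Jarid2), and locus length was not matched in this comparison. The members held 45 distinct shared regions, 14 of them within 1 kb of a start.

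**Figure D3:**
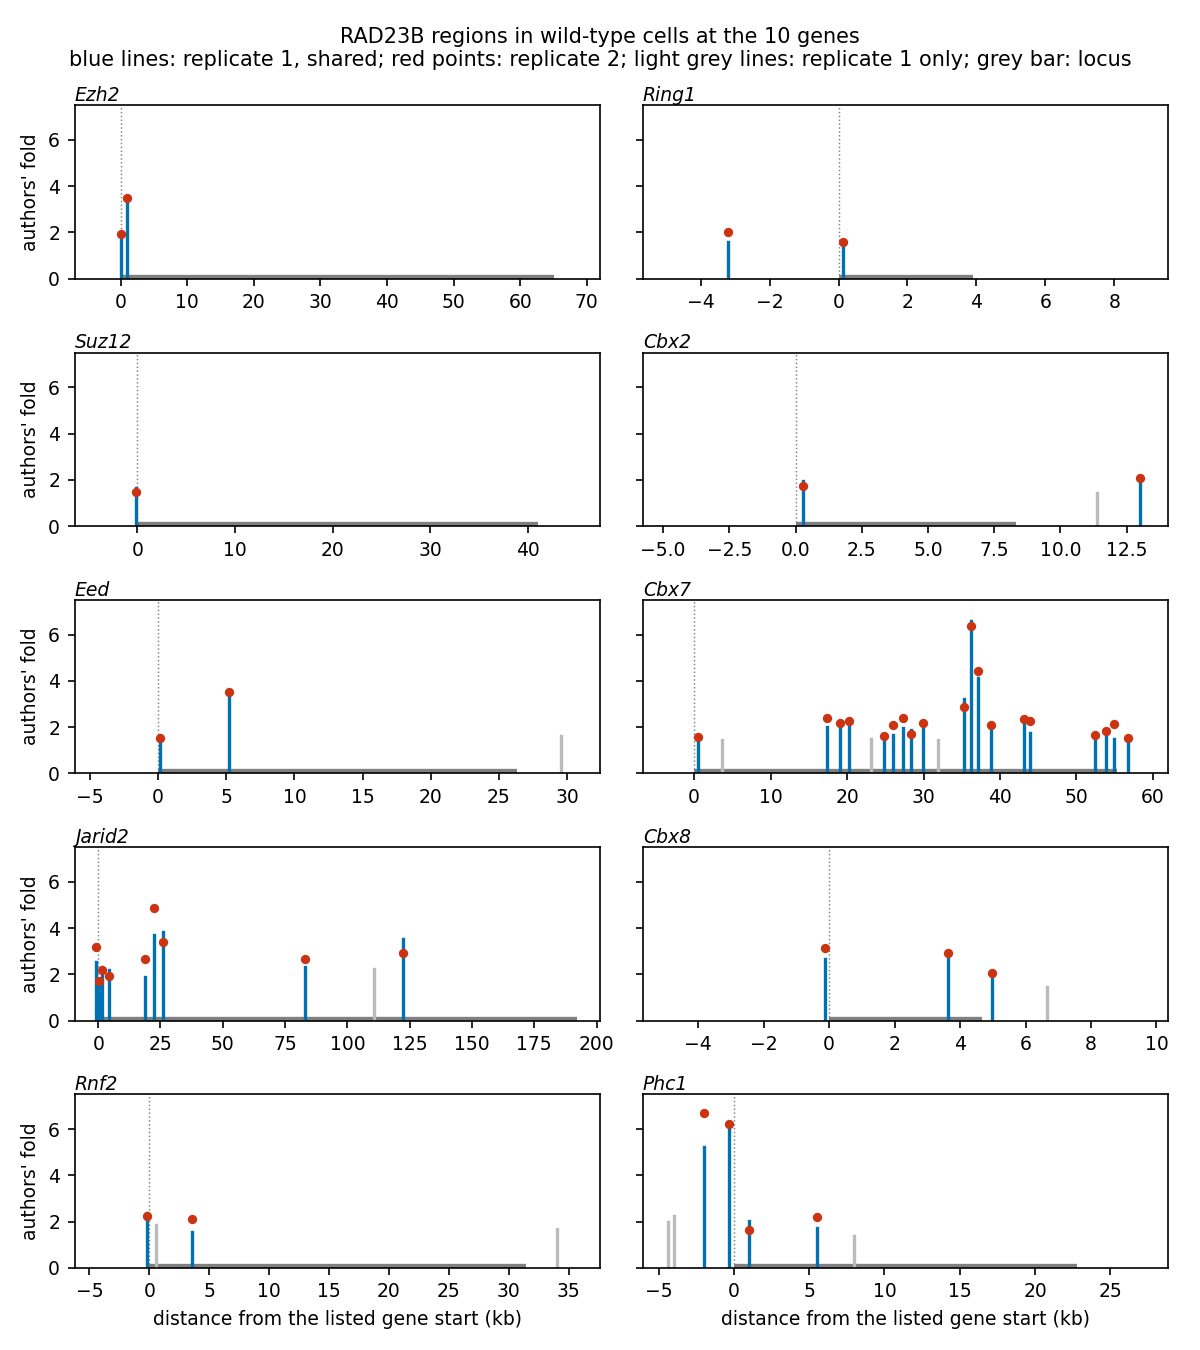
Authors' fold over IgG of each RAD23B region at the 10 genes against the distance of its centre from the listed start in kb, positive into the gene. Blue lines give replicate 1 and red points replicate 2 for shared regions, light grey lines are regions in replicate 1 only, and the grey bar is the locus. Phc1 has its high regions at and before the start, Cbx7 far inside the gene.

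Phc1 had the strongest start region of any gene compared. The region over its start (chr6:122290279-122291595) held 813 reads of RAD23B against 123 of IgG in replicate 1, and 410 against 65 in replicate 2, with folds of 6.26 and 6.23. In replicate 1, 0 of 5451 expressed genes with a start region had a higher fold there, and their median was 1.81. A second region (chr6:122291989-122293089), centred 1.96 kb upstream, held 696 and 126 reads in replicate 1 and 373 and 55 in replicate 2, with folds of 5.23 and 6.68. Both regions were above 5-fold in each replicate, and the replicates differ in which is the higher. Further in, regions centred at 1.02 and 5.55 kb had folds near 2 in replicate 1 (2.01 and 1.71). This is the gene whose promoter window, printed above, was the poorest in CG among the 9 members with a matched promoter.

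Cbx7 had the most regions, and its strong ones lay far from the listed start. It held 19 shared regions, or 2.91 per 10 kb, while expressed genes, with a median locus of 18 kb against 55.3 kb for Cbx7, held a median of 1 and at the 95th percentile 6. Its strongest region (chr15:79765061-79765694), 36.2 kb inside, held 309 reads of RAD23B against 44 of IgG in replicate 1, and 152 against 23 in replicate 2, with folds of 6.57 and 6.38, higher than in 99.8% of shared regions. The adjoining region (chr15:79763756-79764977) held 702 and 161 reads in replicate 1, with folds of 4.14 and 4.43. The region over the listed start itself had folds of 1.4 and 1.59, above 5.54% of the start regions of expressed genes. The RefSeq table of the other build places a Cbx7 start 38.5 kb inside the outer end of the gene, and whether it is the position of these regions was not tested. A broad region centred 38.8 kb inside (chr15:79761913-79763531) had folds of 2 and 2.08.

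Jarid2, the longest locus at 192 kb, held 9 shared regions. Near its start a region centred 775 bases upstream (chr13:44823748-44824386) had folds of 2.55 and 3.17, with 202 RAD23B and 75 IgG reads in replicate 1. Its strongest regions were inside: chr13:44850736-44851335 with folds of 3.82 and 3.38, chr13:44846996-44847618 with 3.7 and 4.86, and chr13:44946765-44947356, 122 kb from the start, with 3.54 and 2.94. The replicates order these differently.

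The core PRC2 genes had 1 or 2 shared regions each, like Rnf2, Ring1 and Cbx2 with 2. Ezh2 had 2, of which the stronger (chr6:47544059-47544750), 936 bases inside, held 259 reads of RAD23B against 74 of IgG in replicate 1, and 110 against 31 in replicate 2, with folds of 3.31 and 3.47. Of the 5451 expressed genes, 104 had a higher start fold than the 3.31 of this region. The region over the listed start of Ezh2 had folds of 1.92 and 1.95. At Eed the stronger region also lay inside (chr7:97123929-97124594, 5.23 kb from the start), with 266 and 70 reads in replicate 1 and folds of 3.59 and 3.5, against 1.62 and 1.52 at the start. Suz12 had 1 shared region, over its start (chr11:79805898-79807032), with 410 and 237 reads in replicate 1, 183 and 125 in replicate 2, and folds of 1.65 and 1.46. The most abundant member was thus among those with start regions below the median of 1.81.

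At the remaining PRC1 genes the folds ranged widely. Cbx8 had 3 shared regions on a locus of 4.67 kb. The region over its start (chr11:118901737-118903065) held 590 reads of RAD23B against 211 of IgG in replicate 1, and 230 against 73 in replicate 2, with folds of 2.66 and 3.12. A second (chr11:118898138-118899164), 3.63 kb inside, had 343 and 115 reads in replicate 1 and folds of 2.83 and 2.93. The last, across the 3′ end of Cbx8 (chr11:118896946-118897642), lay within 5 kb of Cbx2 too and had a fold of 2.08 in each replicate. The Cbx2 start had folds of 1.95 and 1.75. At Rnf2 the region over the start (chr1:153347764-153348515) held 246 and 98 reads in replicate 1, with folds of 2.38 and 2.25. At Ring1 the start region had folds of 1.61 and 1.57, and a region 3.22 kb upstream (chr17:34164332-34165359) lies within Slc39a7, with 1.59 and 2.

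**Figure D4:**
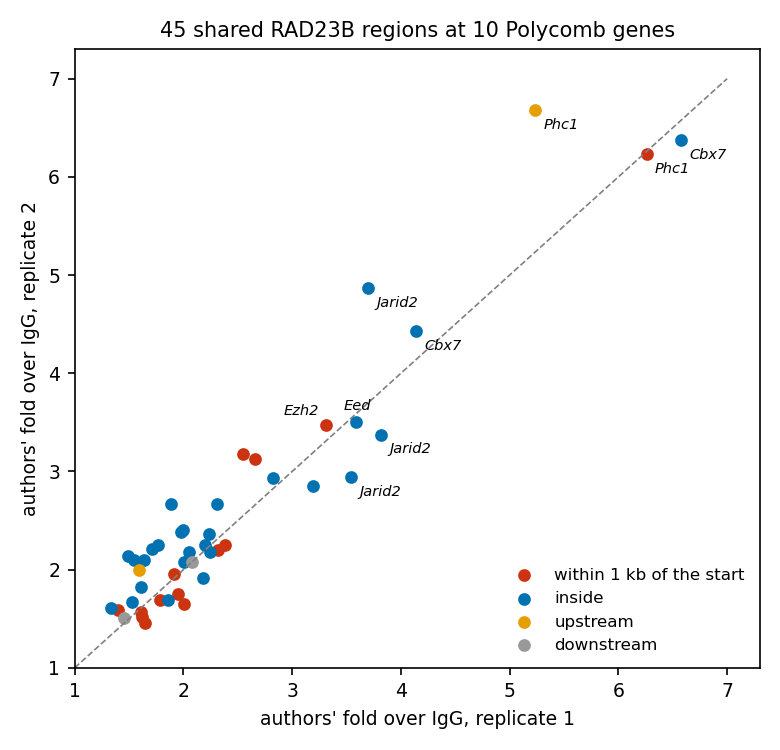
Authors' fold over IgG in replicate 2 against replicate 1 for the 45 shared regions at the 10 genes, coloured by position. The dashed line marks equal folds. Regions of Phc1, Cbx7, Jarid2, Eed and Ezh2 are the highest in both replicates, and most others lie under 3.

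RNA difference and RAD23B start fold ranked the members much alike, but many of the RNA ranks cannot be read. The start fold is the highest among a member's shared regions within 1 kb of the listed start. The Rad23b-/- differences of Ezh2, Jarid2, Rnf2, Cbx2 and Eed lay under the 0.22 spread between the knockdowns, so ranks among them cannot be read. In Rad23b-/- cells the 4 members with the lowest differences, Ring1 (-0.89), Suz12 (-0.76), Cbx7 (-0.25) and Eed (-0.17), were the 4 with the lowest start folds in replicate 1, at 1.61, 1.65, 1.4 and 1.62. The 4 with the highest differences, Cbx8 (2.88), Phc1 (0.34), Jarid2 (0.00) and Ezh2 (-0.04), had the 4 highest folds, at 2.66, 6.26, 2.55 and 3.31. Rnf2 and Cbx2 lay between them, with a difference of -0.10 each and folds of 2.38 and 1.95. The Ezh2 and Jarid2 folds are those of regions centred 936 bases inside and 775 bases upstream. Their regions over the start had folds of 1.92 and 1.78, below those of Rnf2 and Cbx2. The match of the ranks thus depends on the region taken, and ranks by the regions over the start were not tested. The Cbx7 fold is that of the listed start, whereas the RefSeq table of the other build places a start 38.5 kb inside. Regions centred 38.8 and 37.2 kb inside Cbx7 had folds of 2 and 4.14 in replicate 1. Whether Cbx7 keeps its rank with that start was not tested. Eed in the lowest 4, and Jarid2 and Ezh2 in the highest 4, are among the members whose ranks cannot be read. In knockdown 1 the 4 lowest differences were those of Cbx7, Ring1, Rnf2 and Suz12. There Rnf2, with a fold of 2.38, stood in place of Eed. In knockdown 2 the lowest 4 were the same members as in Rad23b-/-. Spearman's rho over the 10 genes was 0.88 in Rad23b-/-, 0.70 in knockdown 1 and 0.87 in knockdown 2 with the folds of replicate 1, and 0.85, 0.78 and 0.88 with those of replicate 2. Over the 5451 expressed protein-coding genes with a start region it was -0.02, 0.02 and -0.01. These are descriptions across genes, which are not replicates, and the 3 comparisons share the wild-type library. The members other than Cbx8, Suz12 and Ring1 lay between -0.48 and 0.34 over the 3 mutants, and the order was looked at after the values had been seen.

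In Xpc-/- cells 0 of 10 members had a listed region in the locus or within 5 kb, beside 2.35% of all listed loci, from a list of 828 regions. The nearest listed region was 91.2 kb from Ring1 and 13.4 Mb from Rnf2. In that list all 828 regions hold more reads under the heading of IgG than under that of RAD23B, so its headings or its direction are uncertain, and a missing region cannot be read as missing RAD23B.

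The other Polycomb genes had listed regions too: 8 of 8 further PRC2 genes, 20 of 22 further PRC1 genes, with Scml2 and Fbrs the exceptions, and 6 of 6 opposing genes had a shared region in the locus or within 5 kb. Of the 44 developmental targets 39 (88.6%) had one, and 21 (47.7%) within 1 kb of the start. Among the targets under 1 RPKM with coordinates of their own it was 22 of 26 (84.6%), beside 29.6% of 7954 protein-coding genes under 1 RPKM. The median locus was 5.12 kb in the former and 6.15 kb in the latter. Whether base composition or shared neighbours bear on that share was not tested.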

How the data were processed

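RNA was measured in 4 poly-A libraries and RAD23B binding in 6 ChIP libraries. The submitters' processing notes name mm9, Partek, Cuffdiff, Cufflinks 2.0.2 and TopHat2 2.0.6; how regions were called is not given in those sources. In each of the 3 expression tables the authors' deposited RPKM has its own scale, so ratios used the wild-type value of the same table, and printed wild-type levels are those of the Rad23b-/- table. No RPKM is 0, and exactly 1 stands in 13841 wild-type values, and such values were taken as 0. The ratio and p-value deposited beside them are the authors', from 1 library per genotype. Region lists give counts of RAD23B and IgG reads per region, per the file headers. Their RPM is the highest pile-up scaled by the authors to library size, and gave the library sizes. Their scaled fold is the authors' ratio of RAD23B to IgG. The p-values in these lists, deposited by the authors, were not used for calls. The headings of the replicate 2 list name replicate 1 libraries. Of 36658 lines, 72 name no gene and were left out.

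Computations used Python 3.11.15, numpy 2.4.6, pandas 2.3.3 and matplotlib 3.10.9, and were tested on simulated data. The labels do not say whether ChIP replicates were separate cultures. Members are named with all values; other listed genes where 2-fold apart or among the 3 highest and 3 lowest of the subunit lists; and the 3 genes nearest to a member past 2-fold. Some listed genes are not reported here. Members and lists were chosen with earlier results of these data known. Alternatives were the pseudocount, the filter, centring, members with coordinates of their own, the region window, overlap, fold and each replicate, and, chosen after seeing the data, the authors' ratio.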

Additional observations from a re-analysis of the deposited data

How the results depend on the processing

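Counts of members past 2-fold against wild type were as reported under every setting tried, except that with a pseudocount of 0.1 RPKM, and likewise with the authors' ratio, 1 member (Ring1) was at least 2-fold lower in Rad23b-/- and 1 in knockdown 2, in place of 0. Counts between the mutants were not repeated under these settings. The median of the members in Rad23b-/- was -0.11 with that pseudocount and with the authors' ratio, and 0.06 with all genes centred on 0. In knockdown 1 the median was 0.09 with that pseudocount and with the authors' ratio, 0.22 centred, and -0.01 over members with coordinates of their own. In knockdown 2 it was 0.05 centred, -0.01 at an RPKM of at least 5, and -0.18 over members with coordinates of their own. Of 60 values of single members under the pseudocount and the centring, 4 moved by more than 0.22, all of Cbx8 (3.74 and 4.80) and Ring1 (-1.15 and -1.0) with the pseudocount of 0.1 RPKM. A smaller pseudocount widens the differences of low genes by construction.

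Without replicate 1 or without replicate 2 the members with a region numbered 10 to 10. With an authors' fold of at least 2 required in both lists they numbered 8. In the Xpc-/- list the count was 0 under every setting. Without replicates of the RNA, differences under the spread between the knockdowns cannot be read. No paired analysis was possible because the RNA genotypes have 1 library each, and RAD23B and IgG libraries of the same number enter only through the authors' fold of their list, on which no test was run.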
